A study of Rattus norvegicus with 4 samples.

Results

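The 10 genes of glycolysis and lactate formation considered were Hk1, Hk2, Aldoa, Aldoc, Gapdh, Pgam1, Eno2, Pkm, Ldha and Ldhb. They were measured in rat cortex on the side of a stroke, with and without estradiol, on Affymetrix RG-U34A arrays, each of which reads a transcript through sets of short probes called probe sets. A member was measured where a probe set outside the array's controls carried that gene symbol alone in the platform annotation. This held for 7 of the 10 genes, with 13 of 8740 probe sets. Gapdh and Ldha were each listed on 1 probe set that also carried other symbols, and no value is given from those. Gapdh was also read by control probe sets, described below, and Eno2 matched no probe set here. Of the 13 probe sets, 12 were bright enough to be tested, with a mean intensity of at least 37.5 in arbitrary units, and the other, a probe set of Hk2 (D26393exon_s_at), stood between 4.5 and 9.7, below background on every array. Background is the brightest signal on that array among 23 controls designed from mouse, yeast or bacterial genes.

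All animals were ovariectomised female rats whose middle cerebral artery was closed for 2 h from inside the vessel and then reopened. One group received 17beta-estradiol and the other placebo, so the ovariectomy and the stroke are common to both. RNA of 3 animals was pooled for each array, with 2 arrays per group, so a group stands for 6 animals and its spread is that between pools. Pools are named estradiol 1 and 2 and placebo 1 and 2, after the labels. The codes of the 4 arrays carry a 6, but no label gives the time after stroke in words, so no time is attached to the values.

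Glycolysis splits glucose into pyruvate in the cytosol and yields ATP without oxygen. When blood flow stops, oxidative phosphorylation fails and the tissue relies on this route, with pyruvate reduced to lactate so that NAD+ is regenerated. In brain the isozymes differ by cell type: aldolase C marks astrocytes, neuron-specific enolase is encoded by Eno2, and hexokinase 1 is the main hexokinase of neural tissue. Several genes of the pathway are known targets of the hypoxia-inducible factors, and Gapdh is widely used as a reference gene.

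Upstream sequence is shown for Pkm, Aldoc and Pgam1, the measured members with a probe set whose estradiol pools both lay outside the placebo range. Each line gives the 250 bases before the RefSeq start site in build GRCr8, 5′ to 3′ on the strand of the gene. Capitals mark ACGTG, the core of the hypoxia response element, or its variant GCGTG, on either strand.
Pkm, chr8:68953385-68953634, + strand: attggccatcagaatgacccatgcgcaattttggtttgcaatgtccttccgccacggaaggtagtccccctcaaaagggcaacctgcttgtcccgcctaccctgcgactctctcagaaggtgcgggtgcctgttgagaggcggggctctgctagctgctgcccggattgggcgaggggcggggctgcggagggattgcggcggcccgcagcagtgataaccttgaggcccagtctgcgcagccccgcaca
Aldoc, chr10:63715294-63715543, + strand: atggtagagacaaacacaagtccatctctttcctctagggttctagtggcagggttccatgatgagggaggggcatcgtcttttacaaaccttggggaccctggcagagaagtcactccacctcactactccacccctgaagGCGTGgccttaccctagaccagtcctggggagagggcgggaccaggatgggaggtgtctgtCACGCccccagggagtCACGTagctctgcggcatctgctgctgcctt
Pgam1, chr1:250672902-250673151, + strand: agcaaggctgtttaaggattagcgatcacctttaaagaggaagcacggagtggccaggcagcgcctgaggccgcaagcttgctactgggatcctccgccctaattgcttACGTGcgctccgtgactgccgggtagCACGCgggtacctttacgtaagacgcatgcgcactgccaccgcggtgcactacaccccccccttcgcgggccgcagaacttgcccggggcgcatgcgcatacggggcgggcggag
The Pkm window holds neither string, the Aldoc window holds 1 match to ACGTG and 2 to GCGTG, and the Pgam1 window holds 1 of each. All 10 genes had at least 1 window in the RefSeq table, 13 in all. ACGTG occurred in 7 of these 13 windows, against 16.6% of 33469 windows of the same length over all genes, and GCGTG in 5 of 13, against 25.9%. Base composition was not matched, and a match describes letters and not binding.

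None of the measured glycolytic enzymes was called different between estradiol and placebo. In the limma fit of all 5244 tested probe sets with Benjamini-Hochberg adjustment, 0 of the 12 passed an adjusted p of 0.05, and 0.0% of all tested probe sets did so in each direction. At an unadjusted limma p below 0.05 there were also 0 of 12, against 3.07% of all tested probe sets. The adjusted p was 0.998 for each of the 12. Fold changes are differences of log2(intensity + 16), estradiol minus placebo. They ran from -0.37 to 0.27. The 95% confidence interval of each of the 12 lay inside a 2-fold change in both directions. The same held for 72.6% of all tested probe sets. It held for 94.7% of the 525 brightest of these, which included 9 of the 12. Such an interval is that of a single probe set and is not adjusted for their number. In pooled tissue RNA, fewer cells of a type and less RNA per cell cannot be told apart.

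The first step, phosphorylation of glucose, is carried out by the hexokinases. Hk1 had values on 2 probe sets that leaned in opposite directions. On rc_AI012593_at the intensities were 766 and 939 in the estradiol pools, given here and below as pool 1 and then pool 2, against 706 and 854 in the placebo pools. In both groups pool 2 was the brighter one, and the groups overlapped. The log2 fold change was 0.12 ± 0.21 (SE), with a 95% interval from -0.37 to 0.62, and its sign turned without estradiol 2 (-0.02) or placebo 1 (-0.01). On U27319exon_at Hk1 read 219 and 168 under estradiol against 208 and 246 under placebo. There estradiol 2 was the lowest pool and the groups again overlapped, with a log2 fold change of -0.22 ± 0.23 (SE).

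The array's control probe sets for hexokinase are annotated to Hk1 as well and lie at 3 positions along the transcript. The one nearest the 3′ end read 152 and 195 under estradiol against 166 and 195 under placebo. The middle one stood at 136 and 81.9 against 159 and 283, so that both estradiol pools lay below both placebo pools. The one nearest the 5′ end stood at 46.4 and 44.9 against 45.5 and 63.3. The differences on the log2 scale were -0.06, -0.91 and -0.18 in that order, a wider range than that of the members' fold changes. The middle one had an exact permutation p of 0.333 (two-sided), and no smaller p can be reached with 2 pools per group. The ratio of the 3′ to the 5′ reading was 3.27 and 4.35 under estradiol against 3.64 and 3.08 under placebo, with overlap. Its 5′ readings were dim, since background was 33.9 and 37.8 under estradiol and 37.8 and 30.1 under placebo, which limits this ratio.

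Hk2, the hexokinase that rises in many tissues under insulin and hypoxia, was measured on M68971_at. It read 181 and 221 under estradiol against 221 and 172 under placebo. Its pools crossed, with pool 2 higher with estradiol and pool 1 higher with placebo. The log2 fold change was 0.03 ± 0.23 (SE), with a 95% interval from -0.52 to 0.58, and it was -0.10 without estradiol 2, -0.14 without placebo 2 and -0.0028 after median centring.

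The aldolases cleave fructose 1,6-bisphosphate into triose phosphates. Aldoa, the isozyme of muscle and most tissues, read 1878 and 2135 under estradiol against 1961 and 2552 under placebo. Placebo 2 was the highest pool and the others lay close together, so the log2 fold change of -0.16 ± 0.21 (SE) became 0.03 without placebo 2. Aldoc, the brain isozyme, was read by 2 probe sets. On X06984cds_s_at it read 1778 and 1701 under estradiol against 1917 and 2149 under placebo, with no overlap, and gave -0.22 ± 0.19 (SE) with a 95% interval from -0.65 to 0.21. On the brighter M63656_s_at it read 3831 and 4402 under estradiol against 4386 and 4369 under placebo. Here estradiol 1 alone lay apart. The log2 fold change was -0.09 ± 0.18 (SE), and it was 0.01 without estradiol 1 and 0.05 after quantile normalisation.

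Gapdh, which oxidises glyceraldehyde 3-phosphate, had values on control probe sets only, and these were left out of the fit. Its 3′ probe set read 5038 and 5522 under estradiol against 5815 and 6436 under placebo, with no overlap and a difference of -0.21 on the log2 scale (exact permutation p = 0.333). The middle and 5′ probe sets overlapped between groups, each with a difference of -0.12. On the middle one the lowest pool was estradiol 1 at 4416, and the other 3 pools lay between 5076 and 5701. The 3′ to 5′ ratio was 1.38 and 1.30 under estradiol against 1.45 and 1.42 under placebo. Beta-actin, a cytoskeletal gene outside the pathway, had control probe sets with both estradiol pools below both placebo pools at 3 of 3 positions. The differences were -0.17, -0.23 and -0.16 (exact permutation p = 0.333 for each). These positions read the same transcript and are not independent, and Gapdh separated on its 3′ probe set only. Estradiol was lower without overlap for 14.3% of all tested probe sets and for 21.1% of the 525 brightest of these.

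Pgam1, the brain form of phosphoglycerate mutase, was read by 3 probe sets that did not share a direction. Of these, S63233_at and S63233_g_at carry the same sequence name and are not independent. On S63233_at the gene read 3537 and 3432 under estradiol against 3868 and 3672 under placebo. The groups did not overlap, but the step between them was small, at -0.11 ± 0.18 (SE) with a 95% interval from -0.53 to 0.30. On S63233_g_at the pools overlapped, at 2483 and 2197 against 2416 and 2487, with -0.07 ± 0.18 (SE). That value was 0.02 without estradiol 2 and 0.07 after quantile normalisation. On rc_AI169417_s_at it was 689 and 869 against 585 and 699.8, the highest fold change among the members at 0.27 ± 0.22 (SE), with a 95% interval from -0.23 to 0.77. Estradiol 1 lay below placebo 2 on this probe set, so the groups overlapped.

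Pkm, which encodes the pyruvate kinase isoforms of muscle type and makes pyruvate and ATP in the last step of glycolysis, had the lowest fold change among the members. It read 3101 and 3620 under estradiol against 4249 and 4447 under placebo. Both estradiol pools lay below both placebo pools, with means of 3360.4 ± 368 (SD, n = 2) and 4348 ± 139.9 (SD, n = 2). The log2 fold change was -0.37 ± 0.19 (SE), or 0.772 times the placebo level, with a 95% interval from -0.81 to 0.06. The unadjusted p in limma was 0.0819 and the adjusted p was 0.998. With 1 pool left out the value lay between -0.49 and -0.26, and after quantile normalisation it was -0.26, so its sign did not turn in these settings. The gene had a single probe set, with no second reading.

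Ldhb, the heart-type lactate dehydrogenase subunit, favours conversion of lactate to pyruvate, whereas Ldha favours lactate formation. Its probe sets U07181_at and U07181_g_at carry the same sequence name. On U07181_at it read 1082 and 1355 under estradiol against 1144 and 1657 under placebo. On U07181_g_at the values were 1267 and 1346 against 1097 and 1539. On both, placebo 2 was the highest pool. The placebo pools differed by 0.53 and 0.48 on the log2 scale. The log2 fold changes were -0.18 ± 0.24 (SE) and 0.01 ± 0.22 (SE). The first was 0.08 without placebo 2. The second was -0.23 without placebo 1, -0.04 without estradiol 2 and -0.03 after median centring.

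**Figure D1:**
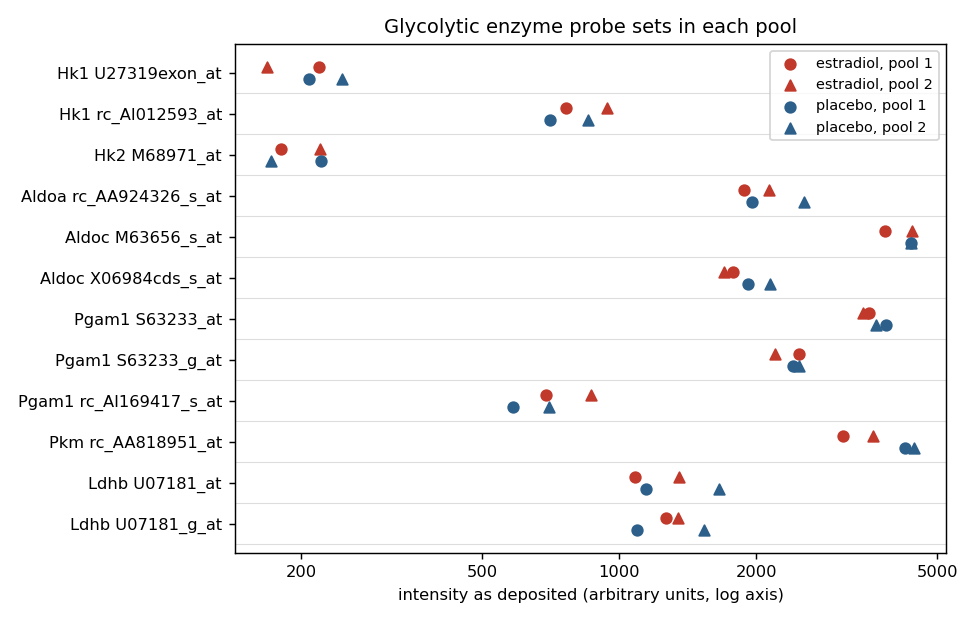
Intensity as deposited (log axis) of the 12 tested probe sets of 7 glycolytic enzymes in each pool of 3 animals, with estradiol in red, placebo in blue, pool 1 as circles and pool 2 as triangles. The red points lie below the blue ones without overlap for Pkm, Aldoc X06984cds_s_at and Pgam1 S63233_at, and the colours overlap on the other 9.

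Across the members the values leaned below 0 by a small amount. Of the 12 fold changes, 8 were below 0 and 4 above, with a median of -0.102, whereas 48.4% of all tested probe sets were below 0 and their median was 0.011. Probe sets of 1 gene are not independent. With 1 value per gene, 5 of 7 genes were below 0 by the mean of their probe sets and 4 of 7 by the brightest. Both estradiol pools lay below both placebo pools for 3 of 12, against 14.3% of all tested probe sets, and above them for 0 of 12, against 15.4%. These 3 were the Pkm probe set and 1 probe set each of Aldoc and Pgam1. The median stayed below 0 with each pool left out, between -0.162 without placebo 1 and -0.045 without estradiol 1.

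This lean was set beside the brightness of the probe sets. The members were bright, with 9 of 12 in the brightest 10% of tested probe sets, and 7 of the 8 values below 0 came from those 9. Over all 525 probe sets of that band the median fold change was -0.068 and 65.1% were below 0, while the medians of the other 10% bands lay between 0.002 and 0.066. This band was set apart after its values were seen. Quantile normalisation gives every array the same distribution, so it leaves little room for a shift of a whole brightness band between the groups. The median of that band was -0.004 after it. The members' median was then -0.009, with 6 of 12 below 0 and values from -0.26 for Pkm to 0.26 for Pgam1. With 9 of 12 members in that band, part of this move was set by the method. It is no separate test of brightness, and whether brightness accounts for the lean was not tested. Median centring, which sets the median of every array equal, moved the members the other way, to a median of -0.135 with 10 of 12 below 0, while the median of all tested probe sets became -0.022. The probe sets without overlap for Pkm, Aldoc and Pgam1 were all in the brightest band. There both estradiol pools lay below both placebo pools for 21.1% of probe sets and above them for 8.6%.

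**Figure D2:**
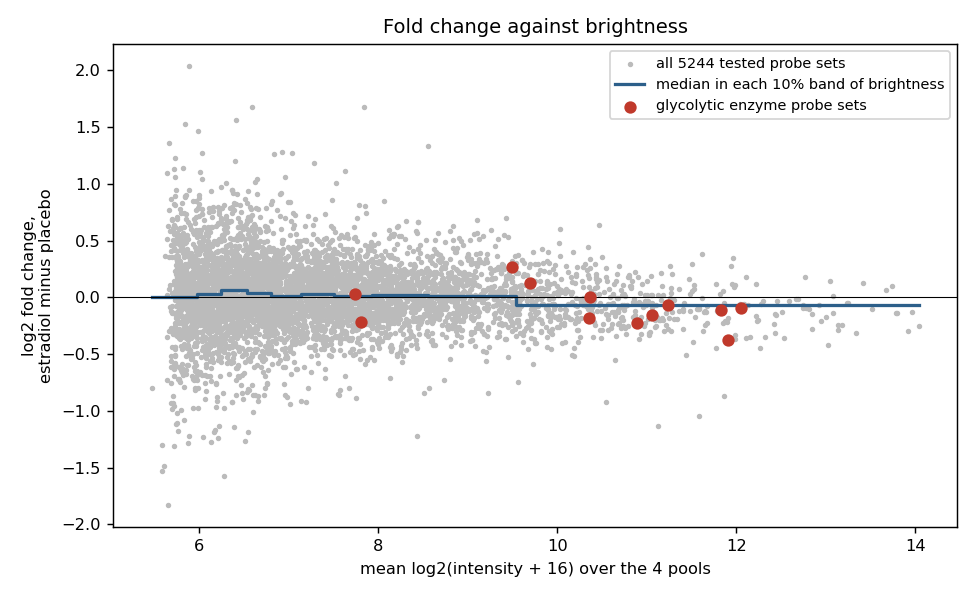
Log2 fold change, estradiol minus placebo, against the mean log2(intensity + 16) over the 4 pools, for all 5244 tested probe sets (grey) and the 12 of glycolytic enzymes (red). The blue line is the median within each 10% band of brightness. It lies between 0.002 and 0.066 in the 9 dimmer bands and at -0.068 in the brightest, where 9 of the red points lie.

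**Figure D3:**
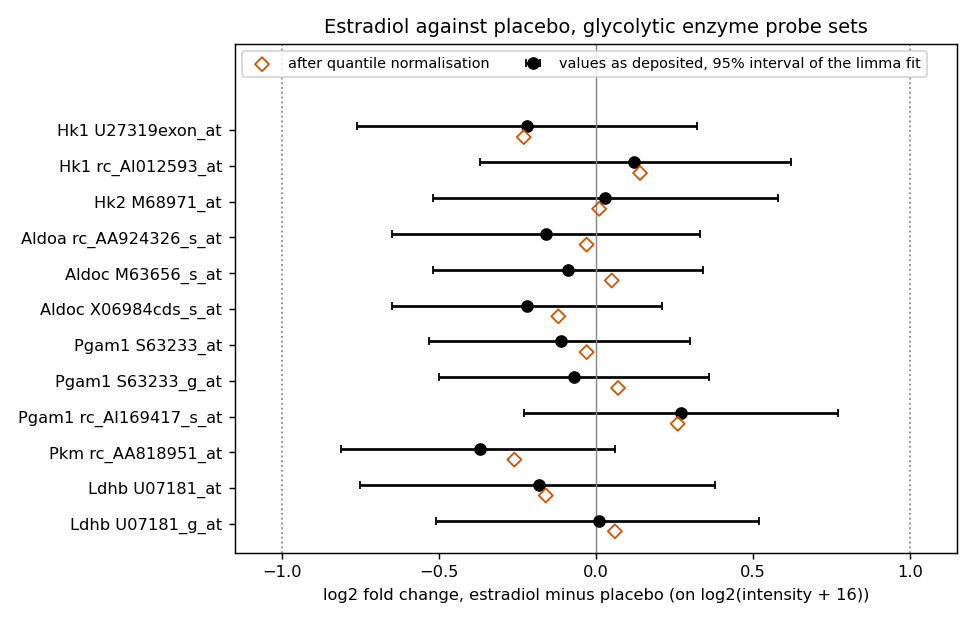
Log2 fold change of the 12 probe sets with values as deposited (black, bars are the 95% interval of the limma fit) and after quantile normalisation (orange diamonds). All bars lie between the dotted lines of a 2-fold change and all cross 0, and the diamonds are evenly split around 0.

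The members differed from pool to pool by about as much as other probe sets. The median size of the difference between single pools was 0.211 under estradiol and 0.240 under placebo, against 0.262 and 0.271 for all tested probe sets. The median size of the difference between treatment means was 0.142, against 0.176 for all. A difference of means over 2 pools varies less than one between single pools, so these sizes are not compared with each other. In 6 of 12 probe sets pool 2 was the brighter one in both groups, against 30.3% of all tested probe sets, and in 1 of 12 pool 1 was. The 6 were the single or both probe sets of Aldoa, Pkm and Ldhb and 1 each of Hk1 and Pgam1.

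**Figure D4:**
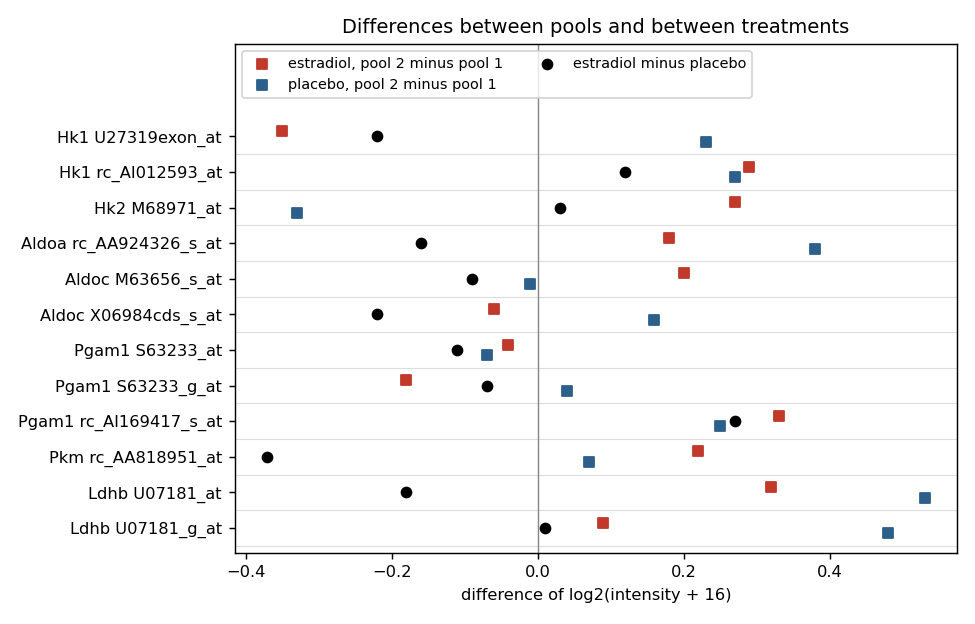
Differences of log2(intensity + 16) for the 12 probe sets, between pools 1 and 2 with estradiol (red squares) and with placebo (blue squares), and between treatments (black circles). The black circles are differences of means over 2 pools, which vary less than the single-pool differences, and Pkm has the lowest of them at -0.37.

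Markers of cell types were set beside these values, each gene by its brightest probe set and without the members. Of 10 measured neuron markers 9 were above background on every array, as were 5 of 6 astrocyte, 5 of 5 oligodendrocyte, 5 of 5 choroid plexus and meninges, and 2 of 5 microglia and macrophage markers. Those not above it on every array were Aif1, Csf1r and Itgam of the microglia and macrophage list, Slc17a7, the vesicular glutamate transporter of cortical excitatory neurons, and Aqp4, the water channel of astrocytes. The summed neuron level was 7050.1 and 7868 with estradiol and 6028 and 8845 with placebo, overlapping and higher in pool 2 of both groups. The astrocyte sum was 7212 and 6419 against 7736 and 6993, also overlapping. The striatum sum was 1255 and 1395 against 526 and 612, and the blood cell sum 1872 and 4249 against 6173 and 5319, neither with overlap. Of the 6 measured striatum markers, 4 were above background on every array, all but Drd2 and Rgs9, and of the 5 blood cell markers all were. The endothelium sum was 530.0 and 489.5 against 724 and 646, without overlap, all 5 markers being above background. Sums of oligodendrocyte, microglia and macrophage, and choroid plexus and meninges markers overlapped, the last running from 1062 in placebo 2 to 11645 in placebo 1. Among tested markers, fold changes were above 0 for 4 and below 0 for 1 in the striatum list. They were below 0 for 5 of 5 in the blood cell list and 5 of 5 in the endothelium list. The same held for 5 of 6 astrocyte, 4 of 5 oligodendrocyte and 3 of 3 microglia and macrophage markers. Values above 0 were found for 6 of 9 neuron markers and 3 of 5 of choroid plexus and meninges. Of all tested probe sets, 48.4% were below 0. A sum follows its brightest genes most. Of single tested probe sets, 15.4% separated the groups with estradiol higher and 14.3% with estradiol lower. The part of these markers in the members' values was not tested.

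Genes around these enzymes were described from 5 lists of 74 genes, of which 41 were tested with 68 probe sets. None passed the adjusted threshold in limma, and 1 probe set had an unadjusted p below 0.05. The median fold change was -0.044, and 38 of 68 values were below 0. The remaining glycolytic steps had 9 probe sets of 5 genes, 5 above 0 and 4 below, with a median of 0.031 that was -0.002 after median centring and -0.128 without placebo 1. Pfkp, the platelet-type phosphofructokinase, had the highest values at 0.41 and 0.14 on probe sets of the same sequence name, the second of them -0.03 without estradiol 2. Pfkl, the liver type, had the lowest at -0.21, or 0.09 without estradiol 1. Eno1, the ubiquitous enolase, read 1724 and 1785 under estradiol against 1820.0 and 2097 under placebo on X02610_at, with -0.15 ± 0.19 (SE) and no overlap, and X02610_g_at, of the same sequence name, gave -0.12.

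Glucose and lactate transport had 10 probe sets of 8 genes, with 7 below 0 and a median of -0.153. Slc16a1, the monocarboxylate transporter MCT1 that carries lactate, had both the lowest and the highest value. On rc_AI145680_s_at it read 69.8 and 101.5 under estradiol against 155 and 122 under placebo, which gave -0.61 ± 0.27 (SE) on the log2 scale. On D63834_at it stood at 67.7 and 120.4 against 74.4 and 41.8, which gave 0.56 ± 0.35 (SE). The opposite readings leave no direction for this gene. The glucose transporter genes Slc2a5 and Slc2a4 had -0.33 and 0.27 on probe sets above background on 3 and 2 of the 4 arrays, the latter value being -0.31 without estradiol 1 and -0.26 without placebo 1.

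Regulators of glycolytic flux had 6 probe sets of 6 genes, with 4 above 0 and a median of 0.063 that ran from -0.139 without placebo 2 to 0.258 without estradiol 2. Hif1a, the oxygen-regulated subunit of hypoxia-inducible factor 1, read 73.7 and 105.2 under estradiol against 119.6 and 106.4 under placebo. Its pools were narrowly apart, and the log2 fold change was -0.31 ± 0.26 (SE). Pfkfb3, which makes the activator of phosphofructokinase, had -0.20, or 0.0019 without estradiol 1. Gckr and Fbp2 had the highest values at 0.59 and 0.48, each below the brightest foreign control on 1 array, and Gckr had -0.01 without placebo 1.

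Genes that take pyruvate and cytosolic NADH onward had 30 probe sets of 16 genes, with 20 below 0 and a median of -0.096, or 0.031 without placebo 2. Dlat, the acetyltransferase subunit of pyruvate dehydrogenase, read 363 and 283 under estradiol against 435 and 412 under placebo on D10655_at, with -0.38 ± 0.22 (SE). Got2 had -0.56 on rc_AA892012_g_at, which was above background on 2 of 4 arrays. That value was 0.30 without placebo 2, since that pool stood at 98.0 and the other 3 between 16.8 and 38.7, and the brighter M18467_at of Got2 gave 0.01. Gpd1, the cytosolic glycerol 3-phosphate dehydrogenase, and Slc25a11, the mitochondrial oxoglutarate carrier, had the highest values at 0.27 and 0.21, and Gpd1 had -0.48 without estradiol 1.

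Glycogen and pentose phosphate side routes had 13 probe sets of 6 genes, with 8 above 0 and a median of 0.099, or -0.082 without placebo 1. Pgm1, phosphoglucomutase, which links glucose 6-phosphate to glycogen, read 319 and 332 under estradiol against 219 and 203 under placebo on rc_AA894296_at. The groups did not overlap, and the log2 fold change was 0.59 ± 0.20 (SE), with a 95% interval from 0.12 to 1.07, an unadjusted p of 0.0211 and an adjusted p of 0.998 in limma. Its other probe set, L11694_at, stood at 132 and 155 against 91.4 and 112, also without overlap, with 0.44 ± 0.24 (SE). With a pool left out, these values went down to 0.54 and 0.31. Gyg1, glycogenin, the primer of glycogen synthesis, had -0.36 on U96130_at. Pygb, the brain glycogen phosphorylase, had -0.22 on M27726_at, whereas its brighter probe sets rc_AA800190_at and rc_AA800190_g_at gave 0.06 and 0.10.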

How the data were processed

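Gene expression was measured on 4 Affymetrix RG-U34A arrays, 2 of estradiol and 2 of placebo pools. The authors deposited a linear intensity for each probe set on each array and had scaled the arrays, since the means after trimming 2% at each end lay between 150.18 and 150.20. No summarising software is named in the sources used here. Of 8799 rows, 59 controls were left out; of the other 8740, 7006 had 1 symbol, 308 several and 1426 none. Identifiers of 6985 were found in the RefSeq table of GRCr8, which changed 0 symbols.

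Intensities were used as deposited, since array medians differed by at most 0.056 on the log2 scale (limit 0.1). Probe sets with a mean at or above the 40th percentile, 37.5, were tested on log2(intensity + 16), a scale that understates changes of dim ones. The test was limma 3.58.1 in R 4.3.3 (lmFit, eBayes with trend, two-sided, Benjamini-Hochberg over 5244 probe sets), with 2 residual and 5.63 prior degrees of freedom. It was tested on simulated data. Background was the highest of 23 foreign controls on each array, between 30.1 and 37.8. Between 58.9 and 64.6% of probe sets lay above it, and the number of arrays limits the precision. By the manufacturer's naming, probe sets ending in _s_at can match more than 1 transcript.

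The members and lists were chosen with earlier results of these data known. All members were named, and in each list the 2 highest and 2 lowest fold changes. The alternatives tried were an offset of 1 or 64, a filter at the 60th percentile or none, quantile normalisation, median centring, no trend, a block by pool number, each pool left out, and 1 value per gene. A comparison of protein sequences was not made. Python 3.11.15, pandas 2.3.3 and matplotlib 3.10.9 were used.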

Additional observations from a re-analysis of the deposited data

How the results depend on the processing

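No result passed the adjusted threshold in limma under any alternative run, and 0 probe sets were called in each direction in all of them. At an unadjusted p below 0.05, 91 probe sets were higher and 70 lower with estradiol. These were 181 and 156 without the filter and 53 and 36 when filtered at the 60th percentile, where the number tested differs, and 71 and 90 after median centring. With 1 pool left out the higher ones ranged from 59 to 145. The pool left alone is then assumed to vary like the others.

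The members' median of -0.102 moved to -0.009 after quantile normalisation, more than the spread between pools of 0.084. It was -0.088 with 1 mean value per gene and -0.092 with the brightest probe set of each. It was -0.135 after median centring. Among the members, 4 values turned in sign under another scaling: Aldoc M63656_s_at (0.05) and Pgam1 S63233_g_at (0.07) after quantile normalisation, and Ldhb U07181_g_at (-0.03) and Hk2 M68971_at (-0.0028) after median centring. The median for glucose and lactate transport was -0.116 after quantile normalisation. The cause of these shifts was not tested.

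With 1 pool left out, the sign turned for 7 of 12 member probe sets. Their ranges were -0.19 to 0.01 for Aldoc M63656_s_at, -0.14 to 0.20 for Hk2, -0.35 to 0.03 for Aldoa, -0.02 to 0.27 for Hk1 rc_AI012593_at, -0.16 to 0.02 for Pgam1 S63233_g_at, -0.45 to 0.08 for Ldhb U07181_at and -0.23 to 0.25 for Ldhb U07181_g_at. Of the other named probe sets, those that turned ranged from -0.52 to 0.09 for Pfkl, -0.03 to 0.31 for Pfkp, -0.41 to 0.0019 for Pfkfb3, -0.01 to 1.20 for Gckr, -0.31 to 0.84 for Slc2a4, -1.43 to 0.30 for Got2 and -0.48 to 1.01 for Gpd1. List medians ranged from -0.128 to 0.139 for the remaining glycolytic steps, -0.139 to 0.258 for regulators, -0.205 to 0.031 for fates of pyruvate and -0.082 to 0.304 for glycogen and side routes.

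No label says that the pool numbers mark a shared batch, so they were not taken to pair the pools. Over all tested probe sets, same-numbered pools of the 2 groups deviated together with a correlation of 0.04. In the 5 related lists, pool 2 was brighter in both groups for 36 of 68 probe sets and pool 1 for 7. For the members these counts were 6 and 1 of 12, and for all tested probe sets 1590 and 1276 of 5244. With the replicate block, 0 probe sets passed in each direction, and 123 were higher and 87 lower at an unadjusted p below 0.05. The members' median was -0.102, but in this balanced layout the block cannot change a fold change, only its error. For Pkm the SE was then 0.153, with an unadjusted p of 0.0506 and an adjusted p of 0.989 in limma.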

Other observations

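Glycogenin was read in opposite directions by probe sets that each separated the groups. Beside the value of -0.36 on U96130_at, Gyg1 had 0.30 on L01793_at and 0.41 on L01793_g_at, both with the 2 estradiol pools above the 2 placebo pools. Their unadjusted p in limma was 0.276 and 0.176. Of all tested probe sets, 15.4% separated with estradiol higher and 14.3% with estradiol lower. The 2 L01793 probe sets were singled out after their values were seen, and they carry the same sequence name. Me1, the cytosolic malic enzyme, had 5 probe sets, all below 0, from -0.33 to -0.01, and 2 of them separated the groups, against 14.3% of all tested probe sets with the estradiol pools lower. One of these, rc_AI171067_at with the -0.33, was above background on 3 of 4 arrays. Among the others, rc_AI171506_at and rc_AI171506_g_at carry the same sequence name. Dlat had 3 probe sets, at -0.38, -0.27 and -0.13, each with the estradiol pools below the placebo pools, but D10655_at and D10655_g_at carry the same sequence name and are not independent. Both genes were singled out after their values were seen, and none of these probe sets passed the adjusted threshold in limma.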
